A study of Homo sapiens with 6 samples.

Results

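Aminoacyl-tRNA synthetases were followed as 39 genes, of 40173 genes that the table listed, and were chosen by name. They comprised 18 cytosolic synthetases, 16 mitochondrial synthetases, the 2 enzymes GARS and KARS that serve both compartments, and the 3 scaffold proteins AIMP1, AIMP2 and EEF1E1. All 39 were found, with 447 of the 151453 transcripts that carried a gene, and all 39 passed the filter on low counts. RNA was sequenced in 3 MOCK and 3 CYGB libraries of HCT116, a human colorectal cancer cell line. Both groups received a lentivirus followed by puromycin selection, and the samples of both were labelled passages 15 to 20. The MOCK virus was the control, with genotype labelled wild type, and the CYGB virus carried the coding region of cytoglobin, a globin of many tissues, fused to FLAG for constitutive expression. The cells were stable lines, and whether a line was 1 clone or a mixed population was not given in the sources used here.

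Each synthetase joins 1 amino acid to its own tRNAs with ATP, which is the step that fixes the genetic code. Cytosolic and mitochondrial protein synthesis mostly use separate nuclear genes, and a suffix 2 usually marks the mitochondrial enzyme. Several cytosolic enzymes, among them the fused EPRS, are held in the multisynthetase complex by AIMP1, AIMP2 and EEF1E1. ATF4, the transcription factor of the amino acid response, is known to raise many cytosolic synthetase genes when amino acids are short. Its binding with C/EBP partners uses a composite site of the form TGATGNAA.

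The sequences of 33 members' start regions were held by RefSeq (GRCh38.p14, 250 bases before to 50 after the start, 300 bases), the other 6 being AARS2, DARS, LARS, VARS, VARS2 and YARS. The letters TGATGNAA, or TTNCATCA for the same site on the other strand, occurred in 8 of these 33 (24.2%). Over all genes with such a region they occurred in 1217 of 27305 (4.46%). The 8 were 7 of 16 cytosolic or dual-compartment genes, 1 of 14 mitochondrial genes and 0 of 3 scaffold genes. They are shown because ATF4 is known to raise many cytosolic synthetase genes, but they were picked by the letters alone, and YARS2 is mitochondrial. Each is on its gene's strand with 10 flanking bases a side in lower case and the match in capitals.
AARS (chr16:70289676-70289703, minus strand): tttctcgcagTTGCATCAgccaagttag
CARS (chr11:3057408-3057435, minus strand): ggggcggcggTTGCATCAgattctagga
GARS (chr7:30594835-30594862, plus strand): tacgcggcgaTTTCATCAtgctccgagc
IARS (chr9:92293693-92293720, minus strand): tttcagcgcgTTGCATCAcctccgtgcg
MARS (chr12:57488054-57488081, plus strand): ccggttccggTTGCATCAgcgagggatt
NARS (chr18:57621805-57621832, minus strand): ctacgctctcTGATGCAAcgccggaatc
TARS (chr5:33440957-33440984, plus strand): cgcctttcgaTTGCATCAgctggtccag
YARS2 (chr12:32756077-32756104, minus strand): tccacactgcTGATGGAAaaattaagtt
A match is a string of letters, and binding was not measured in these libraries. The match began 187 bases before the start in AARS and 197 bases before it in YARS2, and within 33 bases of the start in the other 6 genes.

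The genes of the cytosolic and mitochondrial histidyl-tRNA synthetases, HARS and HARS2, are read away from each other on chromosome 5, with 84 bases between their RefSeq starts. The gene bounds given below are those of GENCODE 29, whose longest transcripts start further out, so that there the genes overlap. That interval is shown because the 2 genes' differences between the groups had opposite signs. It is given on the plus strand (chr5:140691371-140691454), with the 2 matches to CCGGAAGT or ACTTCCGG, the site form of ETS factors, in capitals.
HARS and HARS2: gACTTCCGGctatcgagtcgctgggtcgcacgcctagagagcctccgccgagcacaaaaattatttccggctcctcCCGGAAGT
It held 59.5% G and C. The same letters on either strand occurred in the start regions of 8 of the 33 members (CARS, EARS2, HARS, HARS2, NARS, PARS2, TARS and WARS) and of 1351 of all 27305 genes (4.95%). The start regions of HARS and HARS2 both hold the interval shown, so its matches counted for both genes.

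Counts assigned to genes ranged from 47193496 to 53531777 per library. CYGB itself had 10, 28 and 34 counts in MOCK and 34935, 27681 and 32333 in CYGB, so the libraries matched their labels. Of 6 epithelial markers, KRT8, KRT18, KRT19, EPCAM and CDH1 had group means of 159 to 1802 CPM, but VIL1, of the intestinal brush border, had 0.38 and 0.72. Of 7 markers of blood, endothelium and fibroblasts, PTPRC, CD3E, PECAM1 and DCN were at or under 12 counts in every library, VWF had means of 1.14 and 1.201 CPM and COL3A1 of 0.19 and 0.19, while COL1A1 had a mean of 46.4 CPM in MOCK and 49.7 in CYGB. CPM here is a gene's count scaled by the library's gene counts after TMM normalization. The part of cells other than epithelial ones in the values below was not tested. In bulk RNA a change in the share of some cells cannot be told apart from a change in the RNA per cell.

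None of the 39 genes passed a threshold. By edgeR's quasi-likelihood test, 0 of 39 had an unadjusted p of at most 0.01 with a ratio of at least 2 or at most 0.5, the threshold of the published methods, against 0.565% of all 19987 genes tested (0.28% higher and 0.285% lower). With the Benjamini-Hochberg adjustment over all genes, 0 of 39 were under 0.05, against 0.055% of all genes, and the smallest adjusted p was 0.963. DESeq2 placed 2 members past the first threshold (HARS2, adjusted p = 0.110, and RARS2, adjusted p = 0.232), against 1.32% of all genes by that tool. It placed 0 under an adjusted p of 0.05 (0.543% of all genes) and 7 under an unadjusted p of 0.05 (6.16% of all genes). At an unadjusted p under 0.05 there were 8 of 39 (20.5%, 6 higher and 2 lower in CYGB), against 4.54% of all genes. The 3 libraries of one group lay all above or all below the other group's for 10 of 39 genes (25.6%), against 11.0% of all genes and 11.4% of the 10100 genes at or above the lowest member's mean level. Of these 10, 8 were higher in CYGB (5.72% of all genes were) and 2 were lower (5.31%).

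Most members lay close to no difference. The log2 fold change of CYGB against MOCK was within 0.25 of 0 for 30 of 39 (76.9%), against 75.8% of genes at or above the lowest member's mean level. It was above 0 for 27 members (69.2%) and below it for 12. Above 0 were 48.8% of all genes and 50.6% of genes at or above the lowest member's mean level. The median was 0.08 for the members, -0.01 over all genes and 0.0025 over genes at or above that level. The 95% interval of the log2 fold change stayed within 1 of 0, that is within a doubling or halving, for 33 of 39 members, and within 0.5 for 28. The 6 whose interval reached further were NARS, WARS, GARS, HARS2, RARS2 and VARS2.

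**Figure D1:**
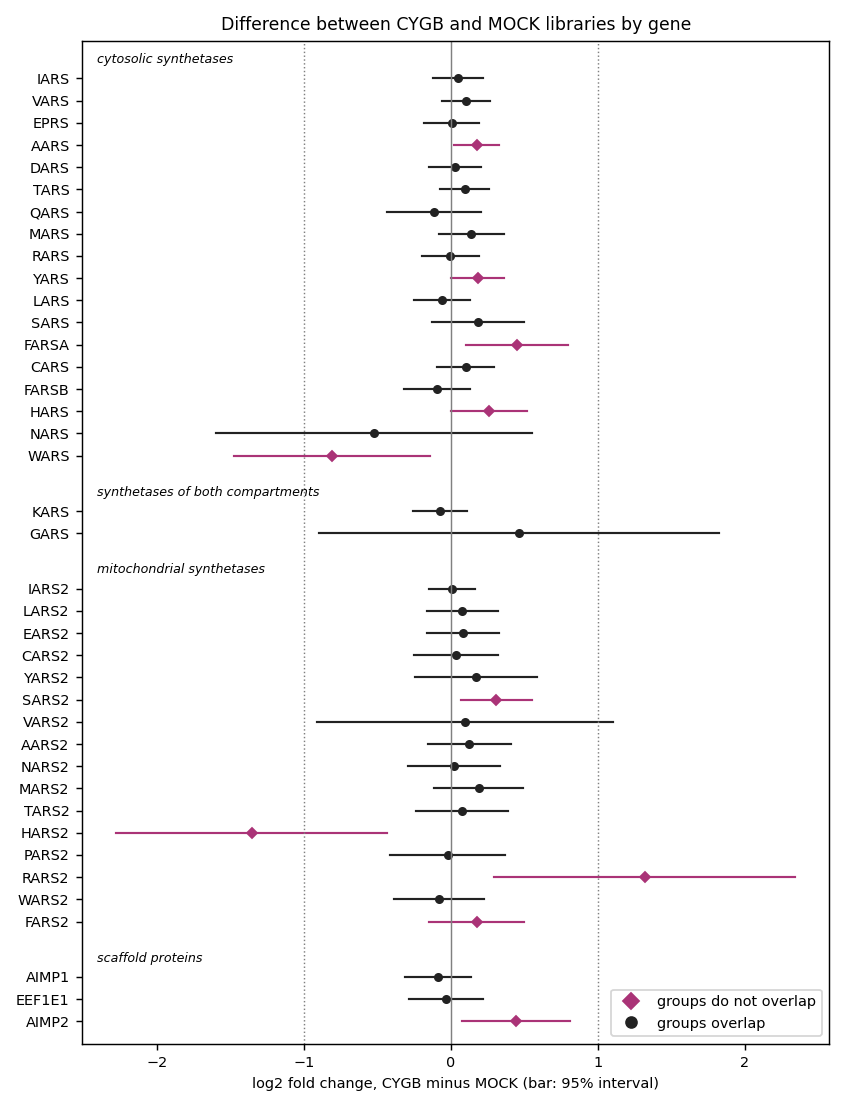
The log2 fold change of each of the 39 genes (horizontal axis, CYGB minus MOCK, bars the 95% interval), ordered within each list by mean level, with dotted lines at a log2 fold change of 1 in either direction. The 10 genes whose groups did not overlap are diamonds, and 30 of 39 points lie within 0.25 of 0.

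The 18 cytosolic synthetases had a median log2 fold change of 0.07, with 12 above 0 and 6 below, from -0.81 for WARS to 0.45 for FARSA. Their summed level was 3352, 3488 and 3497 CPM in the MOCK libraries and 3650, 3524 and 3583 CPM in the CYGB libraries. The means were 3446 ± 81.2 and 3586 ± 63.0 CPM (SD, n = 3), a ratio of 1.04. All 3 CYGB sums were above all 3 MOCK sums on this scale, and no share over other gene sets was computed beside it. Per kilobase of transcript the sums were 1164, 1205 and 1222 against 1299, 1221 and 1231, and there CYGB 2 and MOCK 3 overlapped. Over all synthetases of every compartment, the summed CPM was 4266, 4473 and 4461 in MOCK and 4655, 4461 and 4571 in CYGB, with overlap.

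**Figure D2:**
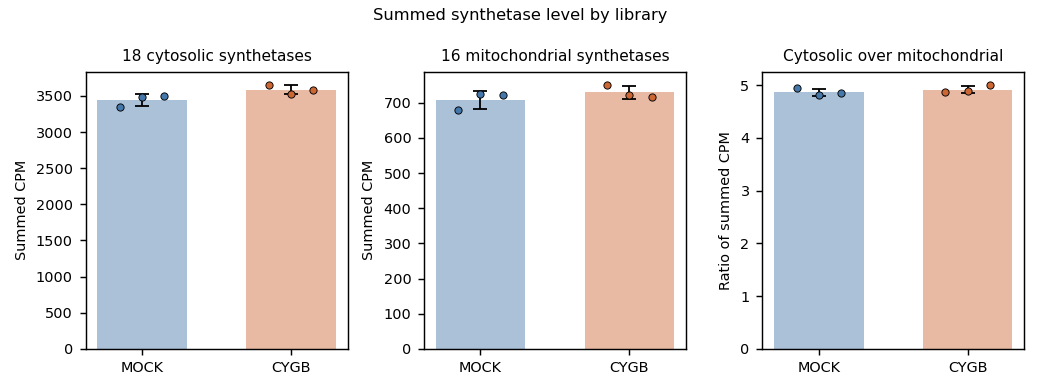
Summed CPM of the 18 cytosolic and the 16 mitochondrial synthetases and the ratio of these sums, by group. Bars are means of 3 libraries, whiskers the SD and points single libraries; the cytosolic sums are 3352 to 3497 in MOCK and 3524 to 3650 in CYGB, and the ratio is 4.81 to 5.00 in all 6 libraries.

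Among the cytosolic enzymes, DARS, for aspartate, had the highest level per length, 122.9 CPM per kilobase as a mean of 6 libraries, and WARS, for tryptophan, the lowest, 19.9. The median of the 18 was 69.9 CPM per kilobase. DARS had 228, 239 and 245 CPM in MOCK and 247, 252 and 227 in CYGB, and the groups overlapped (log2 fold change 0.03 ± 0.07 SE).

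WARS (ENSG00000140105, chr14:100333788-100376805) charges tryptophan and is known to be induced by interferon-gamma. It had 53.1, 68.9 and 40.9 CPM in MOCK and 39.3, 31.4 and 22.2 CPM in CYGB. The highest CYGB library lay just under the lowest MOCK library. The log2 fold change was -0.81 ± 0.27 (SE, n = 3 a group), with an unadjusted p of 0.0249 and an edgeR adjusted p of 0.963. Its transcript ENST00000392882 alone had 346, 2303 and 237 counts in MOCK and 171, 114 and 88 in CYGB, so MOCK 2 held most of that transcript's reads. The leading transcript, ENST00000355338, had 847, 857 and 964 counts against 708, 687 and 549. Without MOCK 2, the gene's log2 fold change was -0.60. WARS shares 388 bases with WDR25 on the other strand, which had 31 to 457 counts in MOCK and 37 to 234 in CYGB. The library kit was not stated to mark strand, so reads from such overlaps cannot be assigned with certainty.

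FARSA (ENSG00000179115, chr19:12922479-12934037) encodes the catalytic alpha chain of cytosolic phenylalanyl-tRNA synthetase, which works as a tetramer with the beta chain FARSB. FARSA had 97.9, 95.5 and 76.8 CPM in MOCK and 139, 107 and 122 CPM in CYGB, with no overlap. This gave a log2 fold change of 0.45 ± 0.14 (SE), with an unadjusted p of 0.0199 and an edgeR adjusted p of 0.963. FARSB had 90.5, 98.2 and 101.8 CPM in MOCK and 95.3, 93.0 and 83.4 in CYGB, and those groups overlapped (log2 fold change -0.10 ± 0.09 SE). On the CPM scale, read between libraries and not between genes, the ratio of FARSA to FARSB was 1.08, 0.973 and 0.754 in MOCK (0.936 ± 0.167, SD) and 1.46, 1.15 and 1.46 in CYGB (1.36 ± 0.183, SD). All 3 CYGB ratios were above all 3 MOCK ratios.

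Most of the FARSA reads in CYGB lay in a transcript annotated as a retained intron, ENST00000588965. It had 193, 3738 and 0 counts in MOCK and 5300, 4200 and 4973 in CYGB. The protein coding transcript ENST00000314606 had 3677, 850 and 2706 counts in MOCK and 889, 984 and 1011 in CYGB. MOCK 2 thus resembled the CYGB libraries in both transcripts, while MOCK 1 and MOCK 3 did not. Over protein coding transcripts alone, the log2 fold change of FARSA turned to -1.24 with an edgeR adjusted p of 0.947. Only 0.06% of the windows of 150 bases in ENST00000314606 were unique to it within the gene, so how reads were divided between the isoforms could not be checked from the table.

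HARS (ENSG00000170445, chr5:140673904-140691862), the cytosolic histidine enzyme, had 77.1, 74.2 and 88.4 CPM in MOCK and 94.8, 103.3 and 88.6 CPM in CYGB. The groups only just separated, with MOCK 3 at 88.4 and CYGB 3 at 88.6. Its log2 fold change was 0.26 ± 0.11 (SE), with an unadjusted p of 0.0504. A transcript of HARS passed the methods threshold in the other direction: ENST00000644191 had 742, 23 and 701 counts in MOCK and 10, 1 and 1 in CYGB, a log2 fold change of -6.92 ± 1.77 (SE; unadjusted p = 0.00890, edgeR adjusted p = 0.895). None of its 150-base windows was unique to it within HARS (0%).

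AARS (ENSG00000090861), for alanine, and YARS (ENSG00000134684), for tyrosine, showed small and even differences. AARS had 312, 309 and 321 CPM in MOCK and 343, 351 and 369 in CYGB (log2 fold change 0.18 ± 0.06 SE, unadjusted p = 0.0300). YARS had 158, 157 and 163 CPM in MOCK and 190.4, 169 and 182 in CYGB (0.18 ± 0.07 SE, unadjusted p = 0.0498). Neither gene's groups overlapped, and the edgeR adjusted p was 0.963 for both. Transcript ENST00000261772 held 98.3 to 99.2% of the AARS counts in every library. YARS shares 1387 bases with S100PBP on the other strand, which had 283 to 1457 counts in MOCK and 262 to 1334 in CYGB.

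The other cytosolic enzymes outside the complex were SARS, NARS, CARS, TARS and VARS. SARS, for serine, had 97.4, 120.2 and 104 CPM in MOCK and 105, 127 and 134 in CYGB, a log2 fold change of 0.18 ± 0.13 (SE) with overlapping groups. NARS, for asparagine, had 66.6, 124.5 and 38.3 CPM in MOCK and 67.9, 52.3 and 39.5 in CYGB. Its MOCK libraries spanned 3.25-fold and enclosed all CYGB libraries, and the log2 fold change was -0.52 ± 0.44 (SE). Transcript ENST00000256854 held at least 96.4% of the counts of the listed NARS transcripts in each library. Gene counts were summed over these, so that share cannot bear on the spread of NARS, whose cause was not tested. Transcripts without a gene were left out of that share, and their part was not tested. TARS and VARS had log2 fold changes of 0.09 ± 0.07 and 0.10 ± 0.07 (SE).

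CARS, for cysteine, had 93.4, 90.7 and 97.2 CPM in MOCK and 99.1, 95.6 and 107 in CYGB, with a log2 fold change of 0.10 ± 0.08 (SE). Its transcript ENST00000527330, annotated to nonsense-mediated decay, passed the methods threshold with 5, 5 and 11 counts in MOCK and 30, 30 and 39 in CYGB. That log2 fold change was 2.21 ± 0.46 (SE; unadjusted p = 0.00366, edgeR adjusted p = 0.563). The protein coding ENST00000397111 had 619, 277 and 575 counts against 1472, 1225 and 1017 (log2 fold change 1.32 ± 0.40 SE, unadjusted p = 0.0176). In CARS, 3 different transcripts led in one library or another.

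The multisynthetase complex holds EPRS, LARS, IARS, MARS, QARS, RARS, DARS and KARS with its 3 scaffold proteins. Its 7 cytosolic enzymes had a median log2 fold change of 0.005, from -0.12 for QARS to 0.14 for MARS, and all 7 lay within 0.25 of 0. None of the 7 had groups that did not overlap, nor an unadjusted p under 0.05. The 11 cytosolic enzymes outside it had a median of 0.10, and 5 of them had groups that did not overlap, where 11.0% of all genes did. The difference between enzymes inside and outside the complex was not tested. IARS, for isoleucine, had 425, 463 and 482 CPM in MOCK and 482, 469 and 466 in CYGB. EPRS, which charges both glutamate and proline, had 341, 360 and 394 CPM in MOCK and 373, 373 and 352 in CYGB.

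QARS (ENSG00000172053, chr3:49095932-49105135), for glutamine, was near level as a gene while its isoforms were uneven. The gene had 195, 184 and 196 CPM in MOCK and 164, 155 and 212 in CYGB (log2 fold change -0.12 ± 0.13 SE). Its transcript ENST00000306125 had 2304, 2744 and 2227 counts in MOCK and 3712, 4745 and 3630 in CYGB (0.73 ± 0.17 SE, unadjusted p = 0.00651). The transcript ENST00000464962 had 4522, 3328 and 5868 counts against 1391, 316 and 3912, with overlapping groups (-1.32 ± 0.85 SE, unadjusted p = 0.173). Neither passed the methods threshold, the first for want of a ratio of 2, and its edgeR adjusted p was 0.758.

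Of the scaffold proteins, AIMP2 (ENSG00000106305, chr7:6009245-6023834) stood apart from the other two. It had 30.8, 32.1 and 31.9 CPM in MOCK and 52.0, 39.7 and 37.2 CPM in CYGB. All CYGB libraries were above the narrow MOCK range, and the log2 fold change was 0.44 ± 0.15 (SE, unadjusted p = 0.0251, edgeR adjusted p = 0.963). Without CYGB 1, the highest library, it was 0.28. AIMP2 shares 1591 bases with EIF2AK1, the heme-regulated eIF2 alpha kinase, on the other strand. EIF2AK1 had 669, 767 and 755 counts in MOCK and 207, 288 and 660 in CYGB. For EIF2AK1 all CYGB libraries were under the MOCK libraries, and its part in the AIMP2 value was not tested. AIMP1 had 74.1, 69.0 and 72.9 CPM in MOCK and 64.7, 73.5 and 64.5 in CYGB (-0.09 ± 0.09 SE). EEF1E1 had 37.8, 40.6 and 43.8 CPM against 40.9, 40.8 and 37.8 (-0.03 ± 0.10 SE), and both overlapped.

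KARS and GARS each give the cytosol and the mitochondrion their enzyme from 1 gene. KARS, for lysine, had 199, 215 and 226 CPM in MOCK and 199, 198 and 210.0 in CYGB (log2 fold change -0.08 ± 0.08 SE). GARS, for glycine, had 36.1, 45.5 and 16.2 CPM in MOCK and 55.8, 17.6 and 61.6 in CYGB. MOCK 3 and CYGB 2 were both low, and the other 4 libraries were 2 or more times higher, so the log2 fold change of 0.46 ± 0.56 (SE) had an interval of -0.90 to 1.83. It was 0.14 without MOCK 3, 0.17 without CYGB 3, 0.28 without CYGB 1, 0.78 without MOCK 2 and 0.84 without CYGB 2. In GARS, 4 different transcripts led in one library or another.

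**Figure D3:**
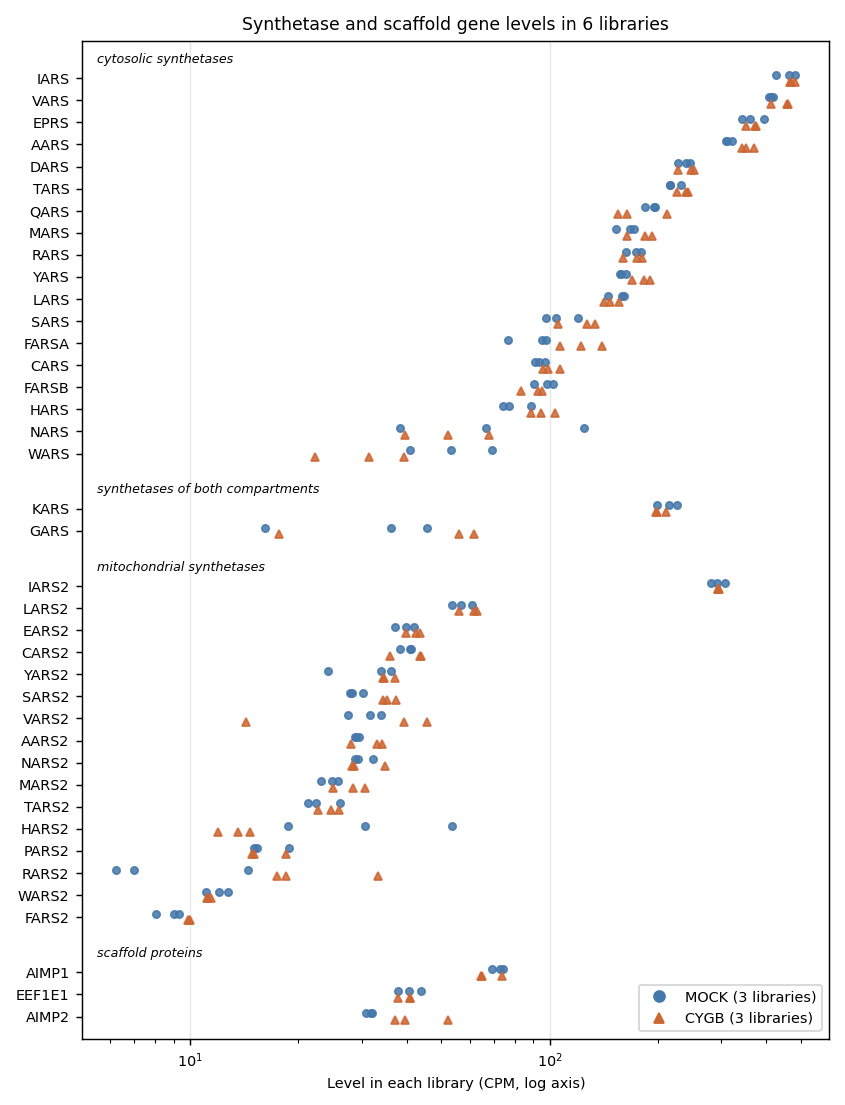
The level of each gene in each of 6 libraries (CPM, log axis; circles MOCK, triangles CYGB), grouped by list and ordered by mean. Levels are not scaled to gene length; most genes show 6 points close together, while NARS, GARS, HARS2, RARS2 and VARS2 are spread by more than 2-fold within a group.

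The 16 mitochondrial synthetases had a median log2 fold change of 0.08, with 13 above 0 and 3 below. Their summed level was 679, 725 and 722 CPM in MOCK (708 ± 25.7, SD) and 751, 722 and 717 CPM in CYGB (729.6 ± 18.3, SD), and the groups overlapped. The cytosolic sum was 4.94, 4.81 and 4.85 times the mitochondrial sum in MOCK and 4.86, 4.88 and 5.00 times in CYGB. The balance of the compartments thus differed by less than the spread between libraries, 4.87 ± 0.0649 against 4.92 ± 0.0738 (SD). IARS2, for isoleucine, had the highest level per length of the mitochondrial enzymes, 83.0 CPM per kilobase, and WARS2, for tryptophan, the lowest, 4.42. IARS2 had 280, 291 and 307 CPM in MOCK and 295, 293 and 293 in CYGB (log2 fold change 0.0045 ± 0.06 SE). WARS2 had 11.1, 12.1 and 12.7 CPM against 11.2, 11.5 and 11.2 (-0.08 ± 0.13 SE).

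HARS2 (ENSG00000112855, chr5:140691426-140699318), the mitochondrial histidine enzyme, had the lowest log2 fold change of all members. It had 18.7, 53.6 and 30.6 CPM in MOCK and 13.6, 14.7 and 11.9 CPM in CYGB. The CYGB libraries were close to each other and all under the MOCK libraries, which spanned 2.86-fold. Its log2 fold change was -1.36 ± 0.38 (SE), an unadjusted p of 0.0112 and an edgeR adjusted p of 0.963, so it missed the p of 0.01 of the methods threshold. Without MOCK 1 it was -1.65 and past that threshold (unadjusted p = 0.00144), and without MOCK 2 it was -0.88. The transcript ENST00000645749 accounted for most of the spread, with 34, 2319 and 598 counts in MOCK and 312, 35 and 1 in CYGB. None of its windows of 150 bases was unique to it within HARS2 (0%), and alone it had a log2 fold change of -3.03. Without it, HARS2 had 851, 511 and 979 counts in MOCK and 374, 711 and 625 in CYGB, and the groups overlapped. The next, ENST00000510104, had 183, 123 and 197 counts against 114, 130 and 134.

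The transcripts of HARS and HARS2 shared 0 windows of 150 or of 31 bases when read on the same strand. The genes overlap by 437 bases on opposite strands in GENCODE, and the part of reads from that overlap in either value was not tested. HARS2 also shares 639 bases with ZMAT2, a splicing factor gene, on the same strand. ZMAT2 had 360, 93 and 3932 counts in MOCK and 619, 3395 and 525 in CYGB, a spread that did not follow the groups, and its part in the HARS2 value was not tested.

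RARS2 (ENSG00000146282, chr6:87514378-87590003), the mitochondrial arginine enzyme, had the highest log2 fold change of all members. It had 6.99, 14.5 and 6.24 CPM in MOCK and 33.2, 17.4 and 18.4 CPM in CYGB. MOCK 2 lay nearest to the CYGB libraries, and the groups did not overlap. The log2 fold change was 1.32 ± 0.42 (SE), with an unadjusted p of 0.0200 and an edgeR adjusted p of 0.963. Without MOCK 2 it was 1.80 and past the methods threshold (unadjusted p = 0.00346), without MOCK 3 it was 1.10, and without CYGB 1, the highest library, it was 0.96, a ratio under 2. Its protein coding transcript ENST00000369536 held 77.3 to 97.5% of the counts, with 302, 743 and 248 in MOCK and 1636, 829 and 936 in CYGB (1.41 ± 0.52 SE, unadjusted p = 0.0363).

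SARS2 (ENSG00000104835, chr19:38915266-38930896), the mitochondrial serine enzyme, differed less but more evenly. It had 30.2, 27.9 and 28.3 CPM in MOCK and 34.3, 35.2 and 37.4 CPM in CYGB (log2 fold change 0.31 ± 0.10 SE, unadjusted p = 0.0212, edgeR adjusted p = 0.963). Its main transcript ENST00000221431 had 994, 940 and 1042 counts in MOCK and 1338, 1537 and 1628 in CYGB. Its short transcript ENST00000598831 went the other way and passed the methods threshold, with 24, 24 and 16 counts in MOCK and 0 in every CYGB library. Against a floor of 3 counts per library, it was at least 7.25-fold lower in CYGB (unadjusted p = 0.00117, edgeR adjusted p = 0.321).

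FARS2, for phenylalanine, had 8.04, 9.05 and 9.31 CPM in MOCK and 9.94, 9.86 and 9.98 in CYGB, without overlap, but its log2 fold change of 0.17 ± 0.13 (SE) had an unadjusted p of 0.237. MARS2, for methionine, had 24.8, 23.1 and 25.8 CPM against 30.7, 24.99 and 28.3 (0.19 ± 0.12 SE). PARS2, for proline, had 15.3, 15.0 and 18.9 CPM against 14.9, 15.1 and 18.5 (-0.02 ± 0.16 SE). VARS2, for valine, had 33.9, 31.6 and 27.5 CPM in MOCK and 39.4, 45.7 and 14.3 in CYGB, where CYGB 3 alone was low. It shares 5865 bases on the same strand with GTF2H4, a subunit of the repair and transcription factor TFIIH, which had 287, 315 and 403 counts in MOCK and 1509, 252 and 1334 in CYGB. The other 7 mitochondrial enzymes (AARS2, CARS2, EARS2, LARS2, NARS2, TARS2 and YARS2) had log2 fold changes from 0.02 to 0.17, all with overlapping groups. EARS2 shares 370 bases on the opposite strand with UBFD1, which itself passed the methods threshold (log2 fold change -2.72, edgeR adjusted p = 0.963).

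Of 16 cytosolic and mitochondrial pairs for the same amino acid, with EPRS paired to both EARS2 and PARS2, the mitochondrial gene had the lower level per kilobase in all 6 libraries for 15. The exception was NARS2, which was above NARS in MOCK 3 (ratio 0.910). The median ratio over the pairs was 4.99 in MOCK and 5.40 in CYGB. It ranged in MOCK from 1.25 ± 0.10 for CARS over CARS2 to 14.9 ± 4.09 for RARS over RARS2 (SD). The ratio of HARS to HARS2 was 3.57, 1.40 and 2.69 in MOCK and 6.16, 6.35 and 5.91 in CYGB. The ratio of RARS to RARS2 was 17.0, 10.2 and 17.5 in MOCK and 4.66, 7.98 and 7.30 in CYGB. Neither overlapped between the groups, and nor did CARS over CARS2, at 1.18, 1.36 and 1.22 against 1.44, 1.53 and 1.37. That made 3 of 16 pairs, and no share over all genes was computed beside it. Levels per kilobase depend on how reads were divided between isoforms. Without ENST00000645749, HARS2 had 851, 511 and 979 counts in MOCK and 374, 711 and 625 in CYGB, which overlapped. The most abundant CARS transcript, annotated as a retained intron, held 28.6 to 45.2% of its counts. In CPM the groups of CARS and those of CARS2 each overlapped.

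**Figure D4:**
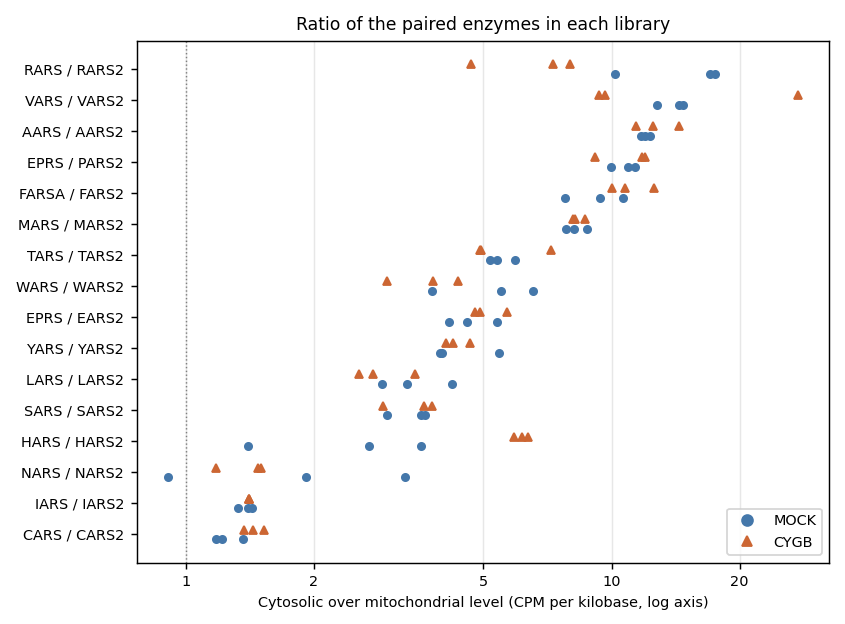
The level per kilobase of each cytosolic gene over its mitochondrial counterpart in each library (log axis; circles MOCK, triangles CYGB; dotted line, equal levels). HARS over HARS2 is higher in CYGB (5.91 to 6.35) than in MOCK (1.40 to 3.57), and RARS over RARS2 is lower (4.66 to 7.98 against 10.2 to 17.5). Without its transcript ENST00000645749, the HARS2 counts of the groups overlap.

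Within a group, the highest library was more than 2 times the lowest for 5 of 39 members (12.8%), against 20.4% of genes at or above the lowest member's mean level. These were NARS in MOCK (3.25-fold), GARS in both groups (2.81-fold and 3.50-fold), HARS2 in MOCK (2.86-fold), RARS2 in MOCK (2.32-fold) and VARS2 in CYGB (3.20-fold). For the other 34 members, the median coefficient of variation was 5.86% in MOCK and 6.11% in CYGB. The 2 genes with the most extreme log2 fold changes, HARS2 and RARS2, were thus among the 5 least even ones.

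Of the 447 member transcripts, 259 were tested and 3 passed the methods threshold (1.16%), against 1.02% of all 66609 transcripts tested. The one in CARS was higher in CYGB (0.54% of all were) and the 2 in HARS and SARS2 were lower (0.482%). These 3, in CARS, HARS and SARS2, belonged to 3 of 39 members (7.69%), where 3.03% of all genes had such a transcript. Members had a median of 6 tested transcripts and all genes a median of 2. By edgeR, an adjusted p under 0.05 was reached by 0 member transcripts (0.015% of all did so), and 13 were at an unadjusted p under 0.05 (3.78% of all). By DESeq2, 7 passed the methods threshold (2.3% of all transcripts by that tool) and 3 had an adjusted p under 0.05 (1.14% of all): those of SARS2 (7.78e-05), HARS (0.000426) and CARS (0.00560). The same transcript led in all 6 libraries for 28 of 39 members, 3 of which have 1 transcript, and changed between libraries for 11.

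**Figure D5:**
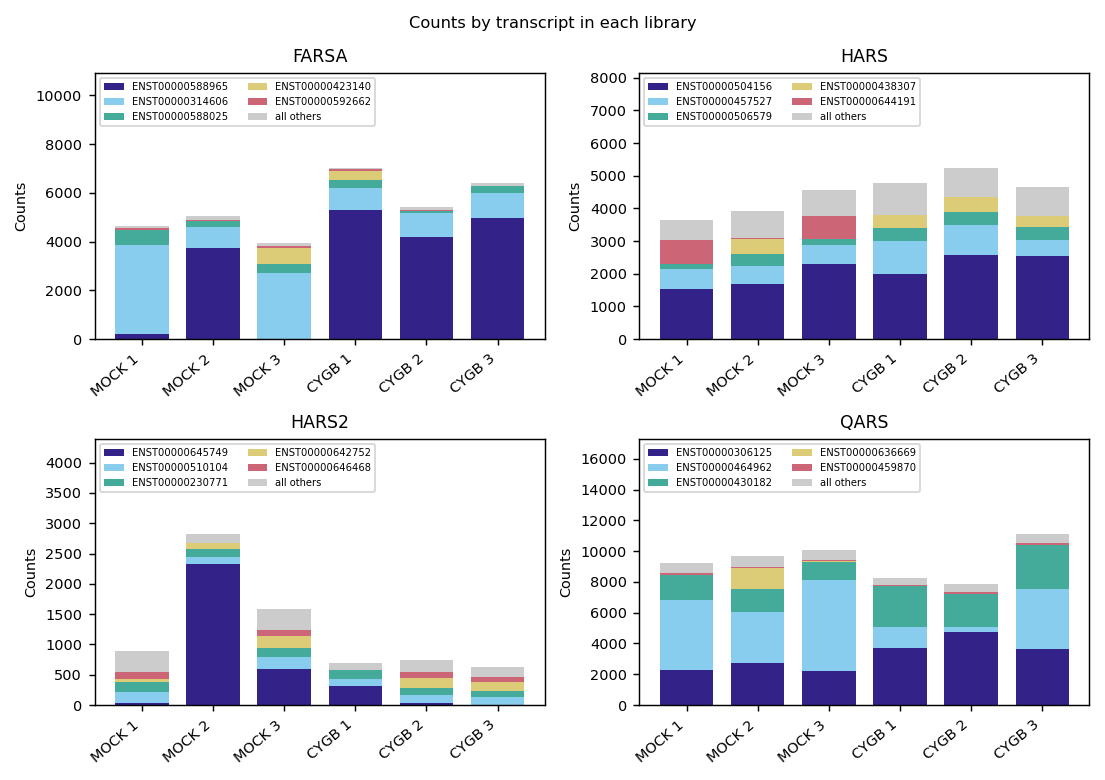
Counts of the 5 most abundant transcripts of FARSA, HARS, HARS2 and QARS in each library, stacked, with all other transcripts of the gene in grey. The leading FARSA transcript ENST00000588965 is near absent in MOCK 1 and MOCK 3 (193 and 0 counts) and has 3738 to 5300 counts in the other 4 libraries, and the large HARS2 bar of MOCK 2 is ENST00000645749.

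The 8 genes with the TGATGNAA letters at their starts had a median log2 fold change of 0.12, from -0.52 for NARS to 0.46 for GARS. The 25 without them had a median of 0.02. Among 10 genes of the amino acid response itself, 0 passed either threshold and 0 had an unadjusted p under 0.05 or groups that did not overlap, with a median of 0.12. ATF4 had 347, 378 and 408 CPM in MOCK and 431, 381 and 438 in CYGB (log2 fold change 0.14). ASNS, asparagine synthetase, had 112, 103.0 and 129 CPM against 114, 110.4 and 92.6 (-0.12). DDIT3, which encodes CHOP and shares 982 bases with MARS on the other strand, had 18.8, 24.7 and 23.1 CPM against 24.0, 28.1 and 31.2 (0.32).

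No gene of the other steps around charging passed a threshold, though single genes were uneven between libraries. Of 10 charging partners, which include the GatCAB subunits that amidate mitochondrial glutamyl-tRNA, 0 passed a threshold and 1 had groups that did not overlap. That was GATB, with 32.1, 33.1 and 34.3 CPM in MOCK and 36.7, 36.1 and 37.5 in CYGB. The 6 elongation factor genes had a median log2 fold change of 0.01, with 0 past a threshold and 0 without overlap. EEF1G, the gamma subunit of elongation factor 1, ranged from 417 to 1398 CPM in MOCK and from 153 to 839 in CYGB, a log2 fold change of -0.61 with an interval of -2.36 to 1.15. Of 9 genes of tRNA maturation and export, 0 passed a threshold, with a median of 0.08, and 2 (22.2%) had groups that did not overlap, against 11.0% of all genes. ELAC1, a tRNA 3'-end processing enzyme, was higher without overlap (6.03, 6.09 and 6.24 against 7.66, 7.26 and 6.61 CPM), and TSEN34, a subunit of the tRNA splicing endonuclease, was lower (109, 104 and 102 against 94.8, 59.1 and 88.2 CPM). Over these 3 lists and the amino acid response, 0 genes had an unadjusted p under 0.05 by edgeR and 0 by DESeq2.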

How the data were processed

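Values were raw counts, not normalized, in the transcript table that the authors deposited for all 6 libraries (3 MOCK, 3 CYGB). The submitters' processing notes name HISAT2, HISAT, DESeq2 and hg19 with no role, and the transcript counter is not given in the sources used here. Of 151393 listed transcripts found in GENCODE 29, 99.5% had its GRCh38 position, so coordinates are GRCh38. Libraries were made with the NEB Next Ultra kit. Counts were summed per gene, leaving out 21225 transcripts without a gene (18.6 to 19.5% of counts). Genes and transcripts were filtered (filterByExpr, minimum count 10), TMM normalized and tested with edgeR 4.0.16 (glmQLFit, glmQLFTest) in R 4.3.3, without a replicate block, and p-values were adjusted by Benjamini-Hochberg over all features tested. The methods threshold was an unadjusted p of at most 0.01 with a ratio of at least 2 or at most 0.5. SE is the log2 fold change over the root of F, and 95% intervals use its degrees of freedom. CPM per kilobase sums each transcript's CPM over its length. Scripts were tested on simulated data. Alternatives were DESeq2 1.42.0, other size factors, filters, transcript subsets, the replicate block, leaving out each library and, chosen after seeing the data, including transcripts without a gene. The members and lists were chosen with earlier results of these data known. Members named with full values were, in each list of members, the 3 largest changes a way, the highest and lowest per kilobase, those without overlap and those with a called transcript, genes of the other lists were named where their groups did not overlap, and further genes (ATF4, ASNS, DDIT3 and EEF1G among them) where they overlapped a member, lead their pathway or had an uneven spread, these chosen after their values were seen. Libraries held 58138393 to 66035266 counts in all, and the spread between libraries, not counting error, sets the precision. The replicates are stated to be biological. Pairs of libraries differed beyond sampling noise (chi-square per gene of at least 77.3).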

Additional observations from a re-analysis of the deposited data

How the results depend on the processing

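The 0 of 39 genes past the methods threshold became 2 with DESeq2 (HARS2 and RARS2), 1 with no expression filter (HARS2), and 0 to 1 without one library, with 1 without MOCK 1 (HARS2) and 1 without MOCK 2 (RARS2). The count under an adjusted p of 0.05 was 0 in all 14 alternatives. The 3 member transcripts past the threshold became 7 with DESeq2 and 0 where a mean of at least 50 counts was asked for. With that minimum, 136 member transcripts were tested in place of 259. The HARS transcript ENST00000644191 met it, with 742, 23 and 701 counts in MOCK and 10, 1 and 1 in CYGB. Without one library, 0 to 8 passed (0 without MOCK 1, 8 without MOCK 2, 1 without CYGB 1). What moved the numbers of genes and transcripts past the threshold was not tested. The median of the cytosolic list ranged from -0.0036 (protein coding transcripts alone) to 0.096, and that of the mitochondrial list from 0.059 to 0.16. Whether the replicate numbers pair the libraries could not be told from correlations of their deviations, which were all near 0. They were 0.016, 0.0049 and 0.025 for same-numbered libraries and -0.020 to 0.0045 for differently numbered ones. With a replicate block, the log2 fold change of CYGB was 10.40 with an edgeR adjusted p of 0.170, and that of VARS2 was -0.0588; the block changed no call of a member gene, and of transcripts 3 passed with it, in CARS, HARS and QARS in place of SARS2.

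Of 546 log2 fold changes of members under alternatives, 41 changed sign, in 22 members, and none passed an adjusted p of 0.05. With the most abundant transcript alone they were -0.0591 for LARS2, 0.36 for KARS, -0.19 for GARS, -0.0577 for CARS, -0.0489 for TARS, 0.0679 for WARS2, 0.46 for LARS, -0.0122 for TARS2, -0.16 for MARS, 0.71 for QARS and -0.15 for IARS. With protein coding transcripts alone they were 0.0686 for KARS, -0.0002 for IARS2, -0.055 for TARS, -0.0943 for MARS and -1.24 for FARSA. With a mean of at least 50 counts, IARS2 was -0.0004. Without one library they ranged from -0.015 to 0.12 for CARS2, -0.0422 to 0.0624 for EPRS, -0.21 to 0.46 for VARS2, -0.0841 to 0.0773 for NARS2, -0.13 to 0.0908 for PARS2, -0.0052 to 0.075 for DARS, -0.0424 to 0.0478 for RARS, -0.0841 to 0.0224 for EEF1E1, -0.0279 to 0.0408 for IARS2, -0.0019 to 0.0897 for IARS and -0.84 to 0.0212 for NARS, whose sign changed without MOCK 2.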
